A study of Homo sapiens with 16 samples.

Results

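The genes described here are the 69 protein-coding genes of chromosomes 1 to 22 and X whose RefSeq span in the GRCh38 annotation is longer than 1 Mb, chosen by length alone from 19974 protein-coding genes. They covered 95.8 Mb, which was 3.16% of the 3030 Mb scanned, lay on 19 chromosomes with 3 on X, and had a median length of 1228 kb. No member overlapped another, and 13 of them hold 28 other protein-coding genes within their span, 12 of these in GPHN, the gene of the synaptic scaffold gephyrin. Peaks came from chromatin immunoprecipitation sequencing (ChIP-seq) of T47D, an estrogen receptor-positive luminal A breast cancer line, with antibodies against the NF-κB subunits RELA (p65), RELB and NFKB2. Knockdown cells carried lentiviral shRNAs against DAB2IP, which encodes a Ras GTPase-activating scaffold protein. Control cells carried an empty vector by the labels, and the study elsewhere calls its T47D control a control or scrambled shRNA. All cells went through puromycin selection and were cross-linked with disuccinimidyl glutarate and then formaldehyde. Each of the 6 groups (3 antibodies in 2 conditions) had 2 libraries. The 3 libraries that share a condition and a replicate number, and by label an input, are called a preparation. The labels do not say that replicates came from separate cultures, so the spread between them may be technical.

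NF-κB subunits bind DNA as dimers at short κB sites, mostly in promoters and enhancers. The longest human genes owe their span to introns, and most encode adhesion molecules, receptors, channels and scaffolds that act mainly in the nervous system. Several also lie at common fragile sites, stretches that break when replication is slowed. Their size makes them likely to hold a peak in any list, so the question asked of them here is how many peaks they hold per megabase, in which library, and against which neighbouring sequence.

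Only intervals of at most 5000 bp were counted, each placed by its centre. The 12 lists differed in length: knockdown RELA replicate 1 held 105520 peaks and knockdown RELB replicate 1 held 75060, against 517399 to 708547 in the other 10. Read totals are not in the lists, so the depth of each library is unknown. The peaks inside the very long genes were weak, as were those of the lists as a whole. In the 10 libraries whose values could be turned back into whole fragments, the median peak in these genes rested on 3 or 4 fragments, and 44.9% to 83.6% of their peaks on 3 fragments or fewer. Among all peaks of these libraries the median was also 3 or 4 fragments, and 41.1% to 81.7% rested on 3 or fewer. Of 228615 peaks in the 69 genes over all libraries, 2 had a q of at most 0.05, against 1520 such peaks in the whole genome. The 69 genes thus held 0.13% of the peaks that passed, while they held 3.44% to 3.95% of all counted peaks of a library. These 2 were a peak in NRG1, a growth factor gene of the neuregulin family, in knockdown NFKB2 replicate 2, and a peak in PARD3B, a cell polarity gene, in knockdown RELA replicate 2. The other 10 libraries had 0 such peaks in the 69 genes. The median fold enrichment in these genes, 2.19 to 2.68 across libraries, was close to that of all peaks, 2.16 to 2.65. The counts below therefore describe where low peaks were listed, not strong binding sites.

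Peaks were denser in very long genes than across the genome in 12 of 12 libraries. Their density ran from 26.9 to 278 peaks per Mb, against 24.8 to 234 for the whole of the scanned chromosomes, since the lists differ in length. As a ratio within each library, it was 1.11 and 1.22 in knockdown RELA, 1.17 and 1.17 in control RELA, 1.09 and 1.21 in knockdown RELB, 1.12 and 1.16 in control RELB, 1.10 and 1.21 in knockdown NFKB2, and 1.13 and 1.25 in control NFKB2. No library fell below the genome value, and replicate 2 was the higher in every group but control RELA. The mean log2 ratio over the 4 preparations was 0.21 ± 0.061 (SD, n = 4), with p = 0.13 in an exact two-sided sign-flip permutation test, the smallest p that 4 preparations allow.

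Their own intergenic surroundings were almost as dense. The flanks, taken as all sequence without a RefSeq gene of any kind within 1 Mb of a member (68.4 Mb), held 26.3 to 263 peaks per Mb. Very long genes were above their pooled flanks in 12 of 12 libraries, by a ratio of 1.02 to 1.07. The mean log2 ratio was 0.063 ± 0.021 (SD, n = 4 preparations; exact two-sided sign-flip permutation test, p = 0.13). Against protein-coding genes of 100 to 300 kb the log2 ratio was 0.18 ± 0.077 (SD, n = 4; same exact test, p = 0.13). The excess over the flanks was thus 0.063 on the log2 scale beside 0.21 over the genome. Leaving out stretches of at least 50 kb that hold no peak in any library, which take up 177 Mb of the scanned chromosomes and 934 kb of the members, lowered the excess over the genome to 0.14 and that over the flanks to 0.047.

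**Figure D1:**
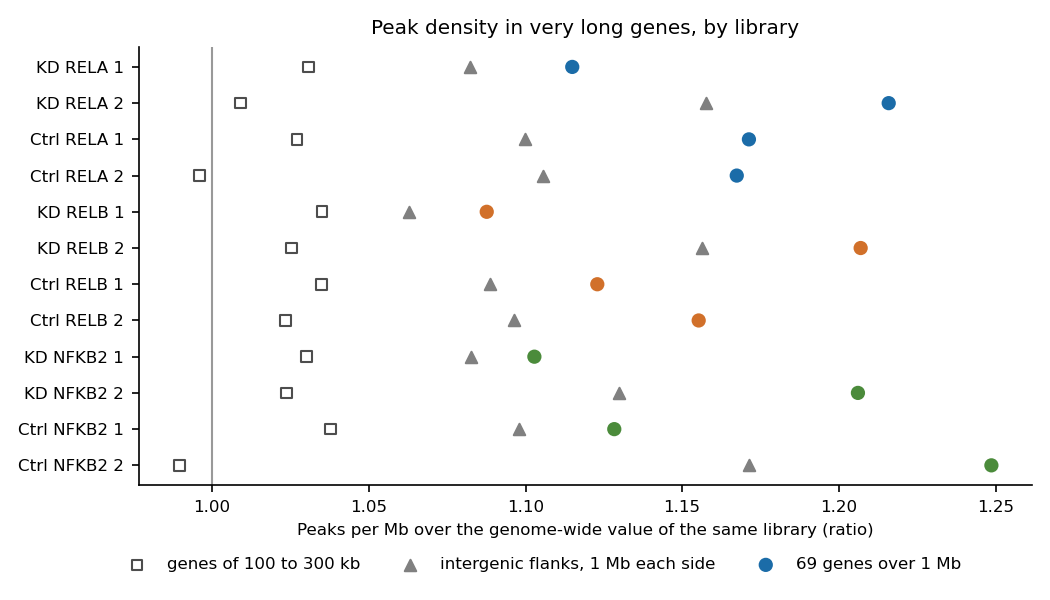
Peaks per Mb over the genome-wide value of the same library (x axis, ratio) for each of the 12 libraries (y axis; KD, knockdown; Ctrl, control; 1 and 2, replicates). Filled circles are the 69 genes over 1 Mb, coloured by antibody, triangles their intergenic flanks and open squares genes of 100 to 300 kb; in every library the circle lies right of the triangle and the triangle right of the square.

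Gene length went with both readouts of binding. The ratio to the genome rose through each length class, from 0.73 ± 0.094 (SD, n = 12 libraries) for genes under 10 kb to 0.85 ± 0.062 at 10 to 30 kb, 0.96 ± 0.033 at 30 to 100 kb, 1.02 ± 0.016 at 100 to 300 kb and 1.07 ± 0.015 at 300 kb to 1 Mb, and was 1.16 ± 0.051 for the 69 longest. The order of the 6 classes was the same in 12 of 12 libraries. The share of genes with at least 1 peak had a median over libraries of 41.2% under 10 kb, 83.6% at 10 to 30 kb, 97.6% at 30 to 100 kb and 99.1% at 100 to 300 kb. All 69 very long genes held peaks in every library, the lowest count being 15 in ADAMTSL1, a secreted ADAMTS-like glycoprotein gene, in knockdown RELB replicate 1. In short lists and long ones alike, the presence of a peak did not separate these genes from each other. Among the 69 themselves, density was nearly unrelated to length (Pearson r = 0.14, Spearman rho = 0.087 across genes, which are not independent replicates).

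**Figure D2:**
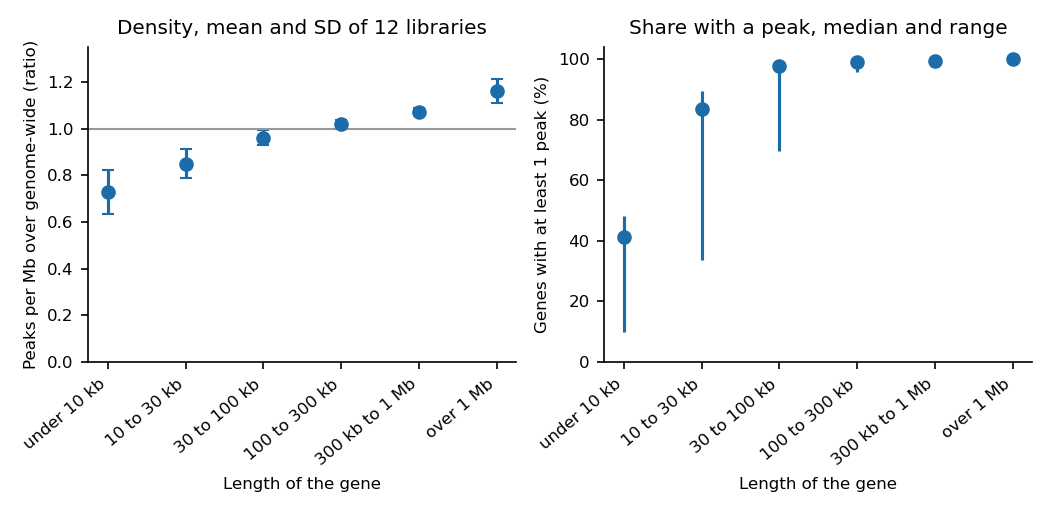
Left, peaks per Mb over the genome-wide value (ratio) for 6 classes of gene length, mean and SD of 12 libraries; right, percent of genes with at least 1 peak, median (points) and range (bars) of 12 libraries. Density climbs from 0.73 to 1.16 while the share with a peak reaches its ceiling by 100 kb.

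At the threshold itself, the genes just inside were above the genome on average and those just outside below it, each by less than its SD over libraries. The shortest members were NCKAP5, which encodes an Nck-associated protein (1003 kb), and ADAMTSL1 (1004 kb), with mean log2 densities relative to the genome of 0.16 ± 0.26 and 0.22 ± 0.40 (SD, n = 12 libraries). Just below stood ASTN2, an astrotactin gene of neuronal migration (992 kb, -0.19 ± 0.32), and CAMTA1, a calmodulin-binding transcription activator (984 kb, -0.26 ± 0.35).

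The 5 longest members ran on average from slightly below the genome to above it, each by less than its SD over libraries. RBFOX1, a neuronal splicing factor gene on chromosome 16 and the longest at 2474 kb, held 23 to 280.2 peaks per Mb with a median of 169, and its relative density of -0.07 ± 0.25 was above the genome in 2 of 12 libraries. CNTNAP2, a neurexin-related gene that clusters potassium channels on axons, had a median of 216 peaks per Mb and a relative density of 0.14 ± 0.35. PTPRD, a synaptic receptor phosphatase gene, had a median of 217 and a relative density of 0.25 ± 0.31. DMD, the dystrophin gene on X, followed with a median of 232 and 0.31 ± 0.33. DLG2, which encodes the postsynaptic scaffold PSD-93, had a median of 199.7 peaks per Mb and a relative density of 0.15 ± 0.30. Compared within libraries, DMD was above CNTNAP2 in 12 of 12, by 0.16 ± 0.072 (SD of the paired difference, n = 12), although each varied more than that between libraries. RBFOX1 minus DMD was -0.38 ± 0.34, with RBFOX1 above in 2 of 12 libraries. The other differences among these 5 genes were smaller than the SD of the paired difference.

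Across all 69 genes the mean relative density was above 0 for 55 and below 0 for 14, with a median of 0.20 on the log2 scale. Over all 1396 protein-coding genes of at least 200 kb, 62.0% were above 0 and the median was 0.096. The SD between the 69 genes was 0.22 and the median SD of a gene over the 12 libraries 0.29. Of the 68 pairs of neighbours in the order, 1 differed by more than the SD of its paired difference over the libraries, IL1RAPL2 and the gene after it. In 4 genes (IL1RAPL2, CDH12, CDH18 and EYS) all 12 libraries were above the genome, and in 1 gene (PTPRN2) all 12 were below.

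IL1RAPL2 stood apart at the top. This X-linked gene of an interleukin-1 receptor accessory protein-like synaptic adhesion molecule lies at chrX:104566199-105767829. It held 54.9 and 525 peaks per Mb in knockdown RELA, 315 and 260.5 in control RELA, 57.4 and 300.4 in knockdown RELB, 343 and 315 in control RELB, 484 and 572 in knockdown NFKB2 and 584 and 463 in control NFKB2. Every one of these was above its library's genome value, on the log2 scale by 0.61 in control RELA replicate 2, the lowest, to 1.38 in knockdown NFKB2 replicate 2, the highest. The relative density was 1.01 ± 0.28 (SD, n = 12), rank 14 among the 1396 genes of at least 200 kb. It was not alone in its region: the 6 other genes of at least 200 kb from ARMCX5-GPRASP2 to TRPC5 on the long arm of X had relative densities of 0.63 to 1.08. The 56 genes of at least 200 kb on X had a median of 0.57. The X-linked members DMD and IL1RAPL1, a paralogue of IL1RAPL2, stood at 0.31 and 0.34.

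Below it the order was close. CADM2, an immunoglobulin-superfamily synaptic adhesion gene, had a relative density of 0.45 ± 0.21 and was above the genome in 11 of 12 libraries. PCDH15, the protocadherin gene of hair cell tip links, had 0.44 ± 0.28, and CSMD3, a CUB and sushi domain gene, 0.42 ± 0.29. CDH12, a brain cadherin gene, had 0.41 ± 0.23 and was above the genome in all 12 libraries. Within libraries, none of the 6 differences among these 4 exceeded the SD of the paired difference.

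At the bottom, PTPRN2, which encodes a phosphatase-like protein of dense-core vesicles, held 19.1 and 115 peaks per Mb in knockdown RELA, 94.4 and 163 in control RELA, 20.0 and 80.1 in knockdown RELB, 126 and 108 in control RELB, 129.7 and 193 in knockdown NFKB2, and 185 and 173 in control NFKB2. All 12 values were below the genome value of their library, and the relative density was -0.58 ± 0.34 (SD, n = 12). Stretches of at least 50 kb without any peak took up 212 kb of it. Next came OPCML, an opioid-binding GPI-anchored adhesion gene, at -0.32 ± 0.32, ASIC2, an acid-sensing ion channel gene, at -0.28 ± 0.34, CDH13, the T-cadherin gene, at -0.16 ± 0.30, and ZFHX3, a zinc finger homeobox transcription factor gene, at -0.14 ± 0.25. Each of these 4 had libraries on both sides of the genome value.

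**Figure D3:**
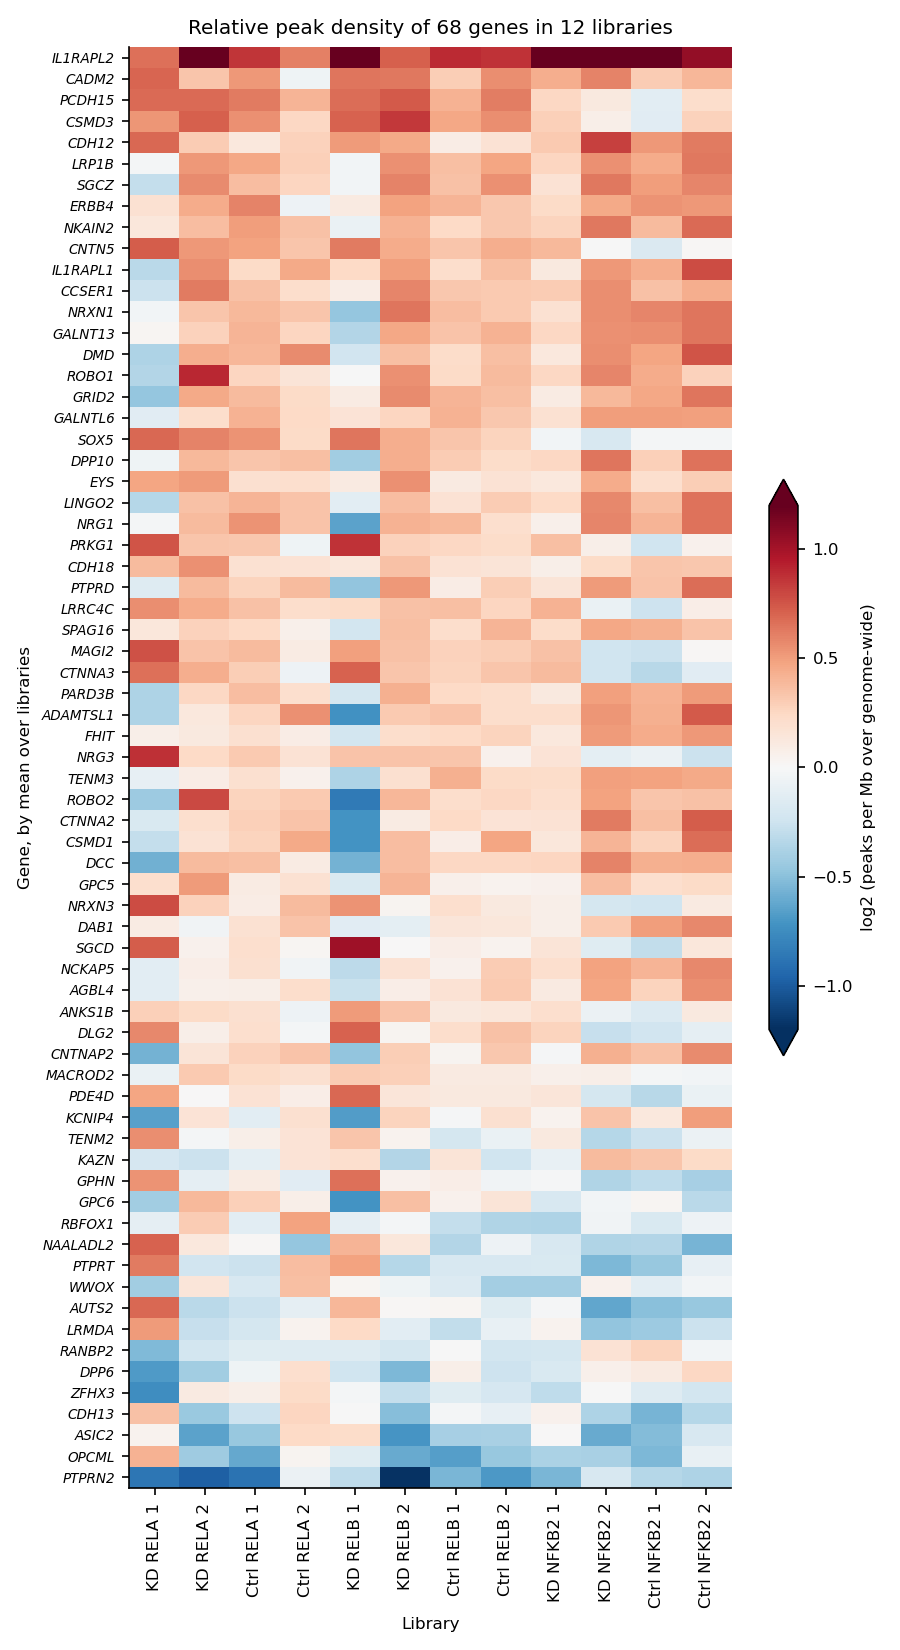
Relative peak density (colour, log2 of peaks per Mb over the genome-wide value) of 68 of the 69 genes (rows, ordered by their mean) in the 12 libraries (columns; KD, knockdown; Ctrl, control; 1 and 2, replicates). IL1RAPL2 is red in every library and PTPRN2 blue in every library, while a block of genes such as DLG2, MAGI2, NRXN3, SGCD and AUTS2 is red in knockdown RELA 1 and knockdown RELB 1 and blue in most of the last 3 NFKB2 libraries.

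By role, members above and below the genome were found in every list. Of 25 neuronal and synaptic adhesion genes 22 were above the genome, with a median relative density of 0.24 and a range of -0.32 to 1.01. Among 13 synaptic receptor, channel and scaffold genes 11 were above, with a median of 0.20. The 13 genes described at common fragile sites had 12 above and a median of 0.22, FHIT among them. The 12 signalling enzyme and growth factor receptor genes had 9 above and a median of 0.19. Of the 3 regulators of transcription or splicing, SOX5 was above and RBFOX1 and AUTS2 were below. The 13 genes in no list had 9 above and a median of 0.16. A gene may sit in 2 lists, and each median lies within 0.05 of that of all 69 genes except that of the 3 regulators, -0.07.

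Which genes stood out depended on the library, and this went with the local background that the peak caller had used. The background could be read back at each listed peak of 10 libraries, all but knockdown RELA replicate 1 and knockdown RELB replicate 1, and is given for each gene as its median over the library median. It fell into bands, with limits set after the values were seen: IL1RAPL2 alone at 0.36, 36 genes below 0.95 with IL1RAPL2 included, 10 genes from 0.95 to 1.3, and 23 genes above 1.3, of which OPCML at 2.31 and NAALADL2, a peptidase-like gene, at 2.39 were the highest. Genes of the same chromosome were often in the same band, such as the 10 members on chromosome 2 (0.75 to 0.91), the 5 on chromosome 4 (0.74 to 0.88) and the 5 on chromosome 10 (1.34 to 1.63), whereas the 5 on chromosome 7 ran from 0.76 to 1.71. Inputs were not analysed here, so the source of these bands was not tested.

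In knockdown RELA replicate 1, 23 of the 23 high-background genes were above the genome, with a median relative density of 0.62, and 7 of the 36 low-background genes, with a median of -0.23. In knockdown RELB replicate 1 the counts were 21 of 23 and 7 of 36, with medians of 0.51 and -0.23. The background values used for these 2 libraries came from the other 10. In control NFKB2 replicate 1 the order was the opposite, with 0 of 23 and 35 of 36 above and medians of -0.26 and 0.42.

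Knockdown NFKB2 replicate 2 (3 of 23 and 35 of 36) and control NFKB2 replicate 2 (9 of 23 and 34 of 36) were like it. In the remaining 7 libraries the medians of the 2 bands were within 0.23 of each other, the high-background genes being the lower in each. Across the 69 genes the Pearson correlation of relative density with background was 0.66 and 0.52 in the 2 short lists, -0.81 to -0.87 in those 3 NFKB2 libraries, and -0.28 to -0.51 in the other 7. These are descriptions across genes that share a library. In all libraries but the 2 short ones the background was read at the same peaks that were counted.

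**Figure D4:**
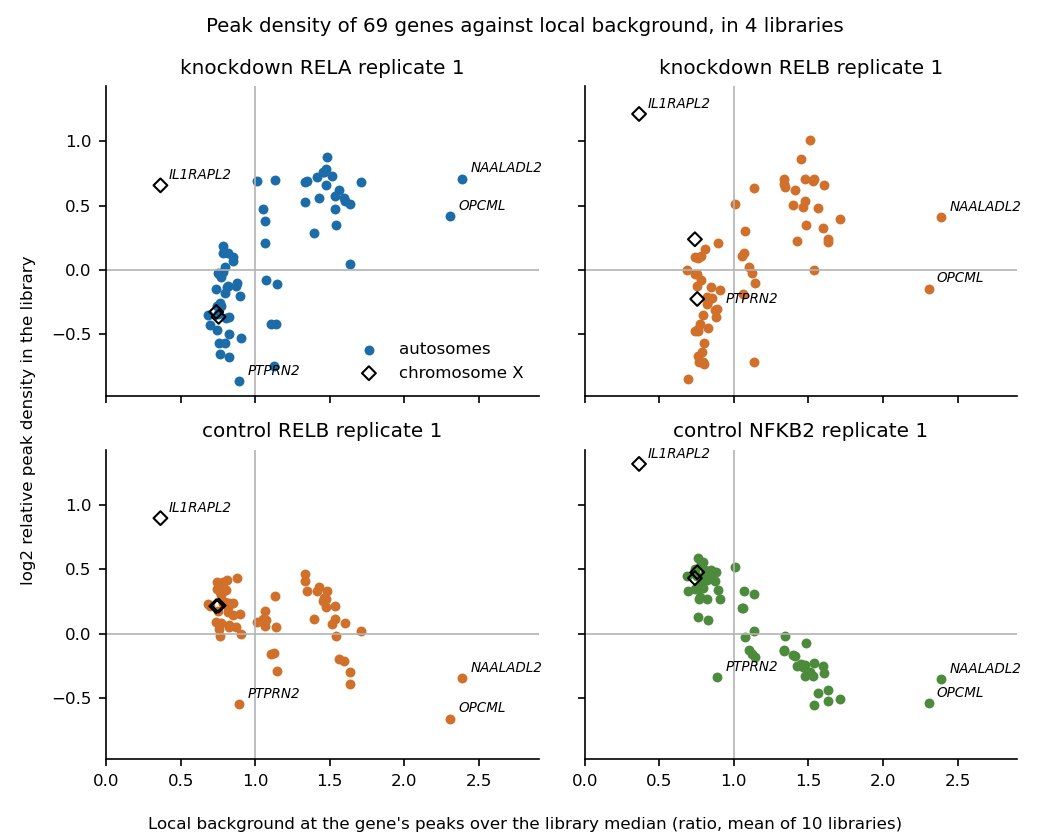
Relative peak density of the 69 genes in a library (y axis, log2) against the local background at the gene's peaks over the library median (x axis, ratio, mean of 10 libraries), in 4 libraries. The points rise from left to right in knockdown RELA and knockdown RELB replicate 1, fall slightly in control RELB replicate 1 and fall steeply in control NFKB2 replicate 1.

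Each gene was next set against its own flank in a limma fit over 12 libraries with the preparation as a random block, run on 1393 protein-coding genes of at least 200 kb. FHIT, the fragile site gene with only 184 kb of flank, could not be fitted, which left 68 members. Of these 68, 12 (17.6%) were denser than their flank at an adjusted p under 0.05, against 12.1% of all genes tested, and 2 (2.94%) were less dense, against 6.89% of all genes tested. On average 52 of the 68 (76.5%) were above 0, against 58.4% of all genes tested, and the median log2 ratio was 0.080 against 0.037. Whether these shares differ from those of all genes was not tested. The count of denser genes moved with the settings, to 5 with peaks at a −log10 p of at least 2, 7 without control NFKB2 replicate 2 and 19 with flanks of 2 Mb, and the count of lower genes fell to 1 with the stricter peaks.

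KAZN, which encodes the desmosome-associated protein kazrin, had the highest ratio. Its density was 28.6 to 295 peaks per Mb with a median of 184, beside 16.3 to 205 with a median of 127 in its flank, and it was above its flank in 12 of 12 libraries (log2 ratio 0.62 ± 0.074 SE; limma, adjusted p = 1.4e-05). KAZN itself was near the genome value, at 0.02 ± 0.25. PARD3B followed, with a median of 221 peaks per Mb beside 143 and all 12 libraries above (0.51 ± 0.082; limma, adjusted p = 0.00031).

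CDH13 was below the genome and yet above its flank in 12 of 12 libraries, with a median of 164 beside 122 (0.44 ± 0.084; limma, adjusted p = 0.0017). SGCD, the delta-sarcoglycan gene of the dystrophin complex, had 0.36 ± 0.088 and DLG2 0.31 ± 0.070, again with all 12 libraries above. The others called higher were CDH12 (0.29), AGBL4, a tubulin-processing carboxypeptidase gene (0.24), NAALADL2 (0.23), the contactin gene CNTN5 (0.23), the receptor phosphatase gene PTPRT (0.23), the postsynaptic adaptor gene ANKS1B (0.22) and IL1RAPL2 (0.21). Of the 12, 7 belonged to the 23 genes of high background. The part of the background in these ratios was not tested.

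The 2 genes called lower were PTPRN2 and KCNIP4, which encodes a regulatory subunit of potassium channels. PTPRN2 had a median of 121 peaks per Mb beside 162 in its flank (log2 ratio -0.47 ± 0.11 SE; limma, adjusted p = 0.0076). KCNIP4 had 196 beside 228 and was below its flank in 12 of 12 libraries (-0.29 ± 0.073; limma, adjusted p = 0.012). Both hold long stretches with no peak in any library, of 212 kb in all in PTPRN2 and 98.3 kb in KCNIP4, and with such stretches left out of the lengths 0 members were called lower and 7 higher. Next in the order were ZFHX3 (-0.25), RANBP2, a nucleoporin gene whose RefSeq span reaches far past its coding part (-0.21), and SPAG16, a sperm flagellum gene (-0.16), none of which passed the test.

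**Figure D5:**
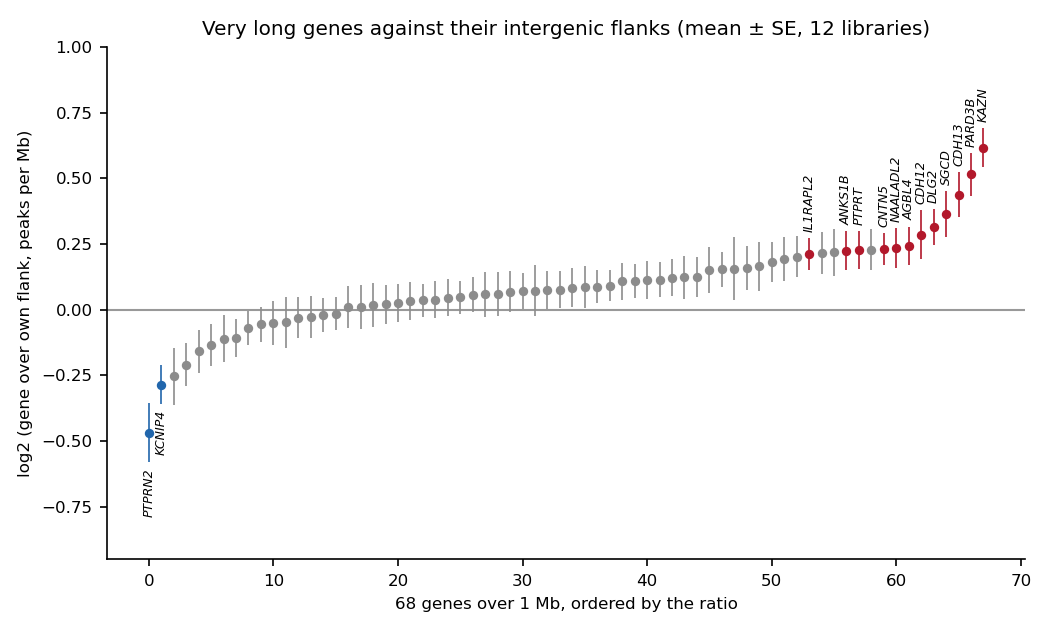
Log2 ratio of peaks per Mb in the gene over its own intergenic flank (y axis, mean ± SE of 12 libraries, limma) for 68 genes in rising order (x axis). The 12 genes in red were called higher and the 2 in blue lower at an adjusted p under 0.05; KAZN is the highest at 0.62 and PTPRN2 the lowest at -0.47.

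The density of a gene followed that of its surroundings. Across the 69 genes the relative density of the gene and of its flank had a Pearson correlation of 0.73 (Spearman rho 0.77), and 0.68 without IL1RAPL2.

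Knockdown of DAB2IP was compared with the control for each antibody, which asks whether loss of DAB2IP moved NF-κB peaks into or out of these genes. For RELA the pooled log2 relative densities were 0.16 and 0.28 in knockdown and 0.23 and 0.22 in control, a difference of -0.0062 (exact two-sided permutation test, p = 1.0). For RELB they were 0.12 and 0.27 in knockdown and 0.17 and 0.21 in control, a difference of 0.0085 (same exact test, p = 1.0). For NFKB2 they were 0.14 and 0.27 against 0.17 and 0.32, a difference of -0.042 (same exact test, p = 0.67). In each antibody the groups overlapped, the knockdown replicates lay farther apart than the means, and the sign turned when 1 library was left out, such as knockdown RELA replicate 1 (0.056), knockdown RELB replicate 2 (-0.067) and control NFKB2 replicate 2 (0.032). The smallest p that 2 against 2 allows is 0.33.

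Gene by gene, a limma voom fit of peak counts over 1396 genes of at least 200 kb, with the preparation as a random block, called 0 of 69 members for RELA (0% of all genes tested), 0 for RELB (0%) and 0 for NFKB2 (0%). At an unadjusted p under 0.05 it listed 93, 40 and 45 of all genes and 4, 0 and 0 members, and limma-trend called 0 as well. Among these 4, NAALADL2, DPP6 and CNTNAP2 had an adjusted p of 0.71 with RELA in limma. NAALADL2 held 57.0 and 248 peaks per Mb in knockdown and 176 and 123 in control (log2 difference 0.58 ± 0.22 SE, after scaling to the length of each list). DPP6, a potassium channel partner, held 21.8 and 170.1 against 168 and 196 (-0.57 ± 0.23). CNTNAP2 held 23.4 and 253 against 211 and 217 (-0.45 ± 0.22).

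NAALADL2 is the gene of highest local background and DPP6 and CNTNAP2 are low-background genes. The list of knockdown RELA replicate 1 carries the opposite background order from the other RELA libraries. Without that library the log2 differences of NAALADL2, DPP6 and CNTNAP2 were 0.39 ± 0.25, -0.51 ± 0.25 and -0.26 ± 0.24 (± SE). The part of the background in these differences was not tested. The response to knockdown was also compared between antibodies in the same voom fit: 0 of 69 members passed for any of the 3 pairs, with 0, 1 and 1 at an unadjusted p under 0.05 for RELB against RELA, NFKB2 against RELA and NFKB2 against RELB.

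The antibodies themselves were compared within preparations. RELB was below RELA in 4 of 4 preparations by 0.031 ± 0.023 on the log2 scale (SD, n = 4; exact two-sided sign-flip permutation test, p = 0.13, adjusted over 3 pairs 0.38). NFKB2 and RELB differed by 0.035 ± 0.052 (same exact test, p = 0.25, adjusted 0.38), and NFKB2 and RELA by 0.0039 ± 0.065 (same exact test, p = 1.0, adjusted 1.0). With only the 20000 smallest p-values of each library these 3 differences were -0.063, 0.16 and 0.094 in the same order. None reached the threshold, and the test with 4 preparations allows no p below 0.13.

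Peaks of different libraries often did not fall at the same place in these genes, though the overlap to be had by chance was not computed. Merged over the 12 libraries they made 128390 regions, of which 58.0% were listed by a single library, 23.2% by 2 and 1803 by at least 6. Such a region joins overlapping intervals in a chain, so the libraries that list it need not share a base. Only 2 regions were listed by all 12, both in IL1RAPL2, at chrX:104843496-104846755 and chrX:105157423-105159831, and no peak there rested on more than 5 fragments in the 10 libraries where they could be counted. Merged over the libraries of each antibody, there were 60848 regions for RELA, 55820 for RELB and 79970 for NFKB2. Of these, 88.2%, 89.0% and 81.8% were listed by 1 library, and 16, 9 and 190 regions by all libraries of the antibody. For RELA, 353 regions were listed by both knockdown and neither control library and 1461 by both control and neither knockdown library, for RELB 186 and 1637, and for NFKB2 1703 and 2445. The same shares over all genes were not computed. The short lists of knockdown RELA replicate 1 and knockdown RELB replicate 1 enter both numbers for RELA and RELB. A region missing from a short list can count toward the second number. Whether the 2 numbers differ by condition was not tested.

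Shared sequence was on average larger within a preparation than within an antibody. Libraries of different antibodies from the same preparation shared on average 3.85% of the bases either listed in these genes (12 pairs), replicates of the same antibody and condition 2.19% (6 pairs), the same antibody in the other condition 2.26% (12 pairs), and pairs with neither in common 2.14% (36 pairs). In the flanks the means were 3.86%, 2.18%, 2.25% and 2.14%. The profiles over the 69 genes followed the same order, with a mean Pearson r of 0.59 within preparations and 0.45 between replicates of a group. Libraries of a preparation share an input by label.

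Within the genes, peaks were spread evenly. Along 57 members with a known strand, each of 10 equal parts of the gene held between 0.93 and 1.03 times the gene's mean density on average over libraries, the last part being the lowest (0.93 ± 0.029, SD, n = 12). The first 10 kb had 0.74 to 1.56 times the density of the whole genes, and 0.97 on average. A rise at the start appeared only in knockdown RELB replicate 1, whose list is the shortest.

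Annotated promoters were looked at directly, as windows of 250 bases before to 50 after a transcript start from RefSeq (GRCh38.p14). Entries matched 57 of the 69 genes, with 135 windows. Between 2.22% and 17.0% of these windows were under a peak in a library, beside 1.69% to 11.8% of 22156 windows of protein-coding genes. The most any window reached was 4 of 12 libraries, in PTPRD, TENM2, a teneurin adhesion gene, and CDH12. Of the 135 windows 50 were under no peak. The κB consensus, searched on both strands, was in 7 of 135 windows (5.19%) and in 6.54% of the windows of all protein-coding genes. Windows with a match and a peak were those of DAB1, the reelin pathway adaptor, with peaks in 2 libraries, and of KCNIP4 and DPP6 with a peak in 1.

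The PTPRD window is shown as one of the 3 windows under a peak in 4 libraries, though it holds no match, and the others because they hold both; capitals mark the κB match, and the transcript starts after base 250.
PTPRD, chr9:10612953-10613252, minus strand: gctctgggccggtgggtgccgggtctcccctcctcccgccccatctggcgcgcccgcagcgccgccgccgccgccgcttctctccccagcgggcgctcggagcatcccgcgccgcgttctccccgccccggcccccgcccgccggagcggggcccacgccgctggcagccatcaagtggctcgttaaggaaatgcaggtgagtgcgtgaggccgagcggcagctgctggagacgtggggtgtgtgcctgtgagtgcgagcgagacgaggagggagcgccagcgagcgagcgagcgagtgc
DAB1, chr1:58250454-58250753, minus strand: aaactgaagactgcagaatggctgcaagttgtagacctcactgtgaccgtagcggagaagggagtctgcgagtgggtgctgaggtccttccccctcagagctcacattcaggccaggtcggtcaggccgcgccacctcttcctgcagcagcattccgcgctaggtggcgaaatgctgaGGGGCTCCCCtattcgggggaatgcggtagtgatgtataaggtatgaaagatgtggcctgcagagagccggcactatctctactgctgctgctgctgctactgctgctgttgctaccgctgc
KCNIP4, chr4:20984021-20984320, minus strand: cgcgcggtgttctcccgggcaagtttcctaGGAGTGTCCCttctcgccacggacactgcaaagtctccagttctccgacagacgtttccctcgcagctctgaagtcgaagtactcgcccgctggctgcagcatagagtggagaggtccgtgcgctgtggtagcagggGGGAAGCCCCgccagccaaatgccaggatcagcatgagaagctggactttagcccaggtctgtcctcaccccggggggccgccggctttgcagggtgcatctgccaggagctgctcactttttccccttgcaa
DPP6, chr7:154052148-154052447, plus strand: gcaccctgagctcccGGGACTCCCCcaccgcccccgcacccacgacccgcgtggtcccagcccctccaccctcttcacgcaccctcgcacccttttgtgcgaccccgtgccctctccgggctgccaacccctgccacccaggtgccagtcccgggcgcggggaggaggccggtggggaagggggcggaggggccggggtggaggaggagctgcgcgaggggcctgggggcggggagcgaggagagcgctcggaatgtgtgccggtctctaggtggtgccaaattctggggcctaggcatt
PTPRD was under a peak in knockdown RELA replicate 2, control RELA replicate 1, knockdown RELB replicate 1 and control RELB replicate 1, and in 0 of 4 NFKB2 libraries. DAB1 was under a peak in knockdown RELB replicate 2 and control NFKB2 replicate 2, and both KCNIP4 and DPP6 in control NFKB2 replicate 2. A match is a match of letters and not a binding site.

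The largest holes in these genes were not shared by most of them. In 6 members the longest run without a peak in any library exceeded 50 kb: 166 kb in CNTNAP2, 152 kb in DPP6, 146 kb in PTPRN2, 130.0 kb in NAALADL2, 121 kb in PTPRD and 98.3 kb in KCNIP4. RANBP2 reached 47.6 kb, and the median of all 69 was 4.0 kb. Intervals over 5000 bp were not counted as peaks here, and 1 such interval in knockdown NFKB2 replicate 2 covered 97.0% of the run in CNTNAP2, while 1 in that library and 1 in knockdown RELA replicate 2 each covered the whole run in RANBP2.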

How the data were processed

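T47D cells with DAB2IP knockdown or empty vector were profiled by ChIP-seq for RELA, RELB and NFKB2. Per the labels and the methods of the study, base calling used CASAVA 1.8, paired-end reads were mapped to hg38 with BWA 0.7.12, and the sequencing provider called peaks in each of the 12 IP libraries with MACS2 2.1.0. The 4 inputs have no list analysed here. The deposited positions are in base pairs. The deposited score is 10 times the −log10 p-value, and the authors' files also hold the fold ratio over local background, the −log10 p-value and the −log10 q-value. They were used as deposited. Differential binding calls were not used. Lists are not normalized to each other, so densities were compared as ratios within a library.

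Gene spans came from a RefSeq table of GRCh38.p14, the release of the files' build. Intervals over 5000 bp were left out and repeated intervals counted once. Chromosome length was taken up to the last listed peak. Fragments and background were solved from fold enrichment and p-value, which succeeded for 100% of the peaks in 10 libraries and for 0.134% and 0.0266% in knockdown RELA and knockdown RELB replicate 1. Read depth is unknown, and p-values measure only the spread between these samples.

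Pooled densities were tested with exact permutation tests. Genes were tested with limma 3.58.1 (R 4.3.3): voom on peak counts of 1396 genes for knockdown against control, and log2 ratios of gene to flank (pseudocount 0.5 peaks, 1393 genes with at least 200 kb of flank), each with Benjamini-Hochberg adjustment at 0.05 and a correlation within preparations (0.30 and 0.12). The counting and both fits were tested on simulated data. Named genes were the 5 longest, the 5 highest and 5 lowest by relative density and by gene-to-flank ratio, those just inside and outside the threshold, those called by a test, those with intervals over 5000 bp in at least 2 libraries, and up to 4 by promoter peaks; IL1RAPL1, SOX5, AUTS2, NRG1, CDH18, EYS and the genes at an unadjusted p under 0.05 were named after their values were seen. The values of 1 gene are not reported here, although it is counted among the 69. The rule that picks the members uses length alone, but it and the role lists were set with earlier results of these data known. Alternatives were other peak thresholds, peak assignment, lengths, flanks, pseudocount, gene sets and left-out libraries. Other software was Python 3.11.15 with numpy 2.4.6, pandas 2.3.3 and scipy 1.17.1.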

Additional observations from a re-analysis of the deposited data

Results flagged for a closer look

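Intervals longer than 5000 bp, which entered no comparison above, were listed in very long genes by only 2 of the 12 libraries. Knockdown RELA replicate 2 held 3 of them and knockdown NFKB2 replicate 2 held 8, against 0 in every control library and in the other knockdown libraries. Across the genome these libraries listed 1281 and 1308 such intervals and the other 10 listed 0. The members held 0.234% and 0.612% of them, less than their 3.16% of the scanned sequence. These intervals are given here because they lie outside the main measurement. Knockdown RELB replicate 2, of the same preparation, listed 0 of them in the genome. The members with such intervals in both libraries were KCNIP4, with 44.7 kb in the RELA and 44.6 kb in the NFKB2 library at nearly the same place, RANBP2, with 132 kb and 129 kb, of which 62.1 and 62.2 kb lay inside the gene, and PTPRD, with 12.1 kb and 11.1 kb. CNTNAP2 held the longest, 162 kb, in the NFKB2 library only, over the longest run of that gene without a shorter peak, and PTPRN2 held 1 of 6.44 kb there. The 11 intervals rested on 1 to 3 fragments each. Each overlapped 1 to 12 shorter peaks of other libraries. Both libraries belong to knockdown replicate 2 and share an input by label, and the part of that input was not tested.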

How the results depend on the processing

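The excess of very long genes over the genome (0.14 to 0.23 on the log2 scale) and over their flanks (0.047 to 0.082) kept its direction under every alternative run. That over genes of 100 to 300 kb did too, at 0.17 to 0.19 with 1 library left out and at most 0.26. A value of 0.11 came from putting genes of 300 kb to 1 Mb in their place. With 12 libraries in place of 4 preparations as the unit, the excesses over the genome and the flanks kept their values of 0.21 and 0.063. Both had p = 0.00049 (exact sign-flip permutation test), but libraries of a preparation share an input by label. The knockdown differences changed sign when 1 library was left out and ranged from -0.069 to 0.056 for RELA (0.056 without knockdown RELA replicate 1, and also without both short lists), from -0.067 to 0.084 for RELB (-0.067 without knockdown replicate 2, -0.012 without control replicate 1) and from -0.11 to 0.032 for NFKB2 (0.023 without knockdown replicate 1, 0.032 without control replicate 2). NFKB2 minus RELA ranged from -0.027 to 0.023 with 1 library left out, at -0.027 without control RELA replicate 2 or control NFKB2 replicate 2, and up to 0.094 under the other alternatives. RELB minus RELA ran from -0.063 to -0.021 and NFKB2 minus RELB from 0.0086 to 0.16, each kept in sign; the farthest value of all 3 came from keeping 20000 peaks of lowest p in each list. The cause was not tested. With replicate number as a replicate block the differences stayed at -0.0062, 0.0085 and -0.042 and 0 members were called for each antibody; the numbers are shared by label only. Voom called 0 members in every alternative, and without control RELA replicate 1 it called 9 other genes for RELA. Genes called higher than their flank numbered 19 with flanks of 2 Mb, 7 without empty stretches, 5 with peaks at a −log10 p of at least 2, and 7 to 13 with 1 library left out, 7 being without control NFKB2 replicate 2. Genes called lower numbered 0 without empty stretches, 1 with the stricter peaks and 2 to 3 with 1 library left out. Without both short lists, an alternative chosen after seeing the data, the counts were 15 higher and 3 lower.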
